A study of Mus musculus with 12 samples.

Results

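Macrophages rich in the complement subunits C1qa, C1qb and C1qc but nearly without the class II chain H2-Ab1 made up 2015 of the 128912 cells kept from MC38 tumors, or 1.56% (95% exact binomial interval 1.5 to 1.63%). Each of these cells had at least 2 UMIs (distinct captured transcripts) of Adgre1 and Csf1r together, at least 30 UMIs of the 3 C1q genes per 10000, and at most 3 UMIs of H2-Ab1 per 10000. They also held under 2 UMIs per 10000 of Arg1 and of Cxcl9, at most 1 UMI of Folr2, and no UMI of Cd3d, Cd3e, Cd3g, Mki67 or Top2a. They are called MHC-II-low cells below. The same rule without the limit on H2-Ab1 gave 13949 C1q-high macrophages, of which the MHC-II-low cells were 14.4% (13.9 to 15.04%), and the remaining 11934 are called other C1q-high macrophages.

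The cells were CD45+ leukocytes from subcutaneous MC38 colon tumors of C57BL/6 mice, taken 17 days after implantation and profiled by droplet single-cell RNA sequencing of transcript 3′ ends. The 4 groups of 3 mice received the EZH2 inhibitor PF-06821497 (EZH2i; 100 mg/kg daily, subcutaneous) or vehicle for 7 or 16 days. All mice were tumor-bearing wild-type animals of 1 strain, and EZH2 is the catalytic subunit of the Polycomb complex that methylates histone H3. The cell barcodes carry a library number from 1 to 12 that no label ties to a mouse or a treatment. The paper's totals of cells per group come close to the barcodes of libraries 1 to 3, 4 to 6, 7 to 9 and 10 to 12. No label states such blocks, and they were not used. The matrix was treated as 1 pooled sample and no treated group was compared with vehicle. Each level is given over the 12 libraries.

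C1q is the recognition molecule of the classical complement pathway, and in tissues it is made mainly by macrophages. MHC class II molecules present peptides taken up from outside the cell to CD4+ T cells. Their genes are switched on together by the co-activator CIITA, which is recruited to a shared set of promoter boxes, and interferon gamma is its best known inducer in macrophages. Macrophages low in class II are a usual finding in tumors, beside class II-high macrophages.

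Several libraries stood apart, and the values below are given with this in view. Library 10 held 459 of the MHC-II-low cells, or 22.8%. Libraries 5 and 6 were shallow, with medians of 3317.5 and 1818 UMIs in the MHC-II-low cells, whereas library 12 was the deepest with 19371. Library 4 held 6135 of the 6160 hemoglobin UMIs of the MHC-II-low cells, and 2 of its cells had 10 or more, 1 of them 4050, and it also had the highest Hspa1b, a heat shock gene. In libraries 1 to 6 the 999 MHC-II-low cells held 873 UMIs of the Y-linked genes Ddx3y, Uty, Eif2s3y and Kdm5d and none of Xist, and in libraries 7 to 12 the 1016 cells held 7798 UMIs of Xist and none of the Y-linked genes. The study's methods name female mice. Barcode sequences found in more than 1 library belonged to 2.93% of the cells kept, and no 2 MHC-II-low cells shared one.

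The class II chain genes and the H2-DM and H2-O genes lie together on mouse chromosome 17, apart from Cd74 and Ciita. Identifiers are ENSMUSG00000036594 for H2-Aa and ENSMUSG00000060586 for H2-Eb1. The promoters of H2-Aa and H2-Eb1, which encode an alpha and a beta chain, are shown because these 2 genes were the furthest lower against the other C1q-high macrophages. The 110 bases upstream of the RefSeq start (GRCm38.p6) span chr17:34287824-34287933 on the minus strand for H2-Aa and chr17:34305757-34305866 on the plus strand for H2-Eb1. Capitals mark ATTGG, the inverted CCAAT core of the Y box of class II promoters:
H2-Aa: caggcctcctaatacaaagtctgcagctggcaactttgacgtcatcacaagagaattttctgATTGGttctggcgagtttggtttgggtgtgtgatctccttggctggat
H2-Eb1: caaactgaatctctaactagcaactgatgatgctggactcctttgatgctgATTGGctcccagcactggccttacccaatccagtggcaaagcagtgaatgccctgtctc
ATTGG began 48 bases before the start in H2-Aa and 59 bases before it in H2-Eb1, in both within CTGATTGG. H2-Eb1 also holds the core once in the other orientation, as ccaat, nearer to the start. ATTGG began 43 bases before the start in H2-Oa, again within CTGATTGG, 57 bases before it in H2-Ob, and 61 bases before the start of H2-DMb1, which encodes a chain of the peptide-loading chaperone H2-DM. Among 32851 mouse promoters, 20.2% held ATTGG or CCAAT in the same 110 bases and 2.74% held CTGATTGG or CCAATCAG, which includes the shorter motif. The core was not in the 110 bases of either listed H2-DMa promoter. A match of letters is a description of the promoter and was not measured as binding.

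C1q-high macrophages were spread over a wide range of H2-Ab1, and the MHC-II-low cells were its lower tail. Among the 7649 C1q-high macrophages with at least 5000 UMIs, 514 had no UMI of H2-Ab1, 844 had up to 3 per 10000, 980 had 3 to 10, 1456 had 10 to 30, 1540 had 30 to 60 and 2315 had more. The histogram of H2-Ab1 has its tallest class at 59.9 to 75.4 per 10000 and no gap at the limit. Of all MHC-II-low cells, 54.7% had no UMI of H2-Ab1. In 434 of them, 320 of which came from libraries 5 and 6, a single UMI would already have passed the limit.

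**Figure D1:**
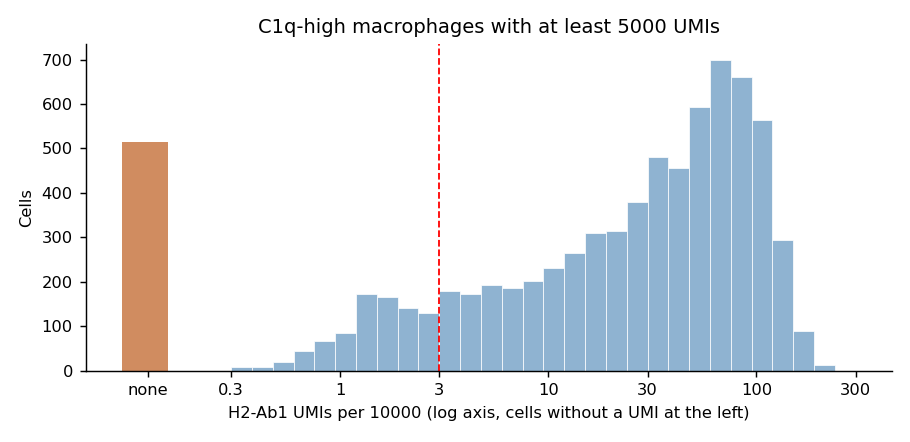
H2-Ab1 UMIs per 10000 (log axis) in the 7649 C1q-high macrophages with at least 5000 UMIs, with the number of cells on the vertical axis. The orange bar is the 514 cells with no UMI, the dashed line is the limit of 3, and the counts run across the limit without a gap.

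The share of MHC-II-low cells among C1q-high macrophages ranged from 4.18% (3.33 to 5.17%) in library 5 to 51.5% (48.2 to 54.8%) in library 10, with a median of 15.2%. The next highest was 24.9% in library 12, so the interval of library 10 did not overlap that of any other library. Without library 10 the pooled share was 11.9%, and without library 4 it was 13.9%. Over libraries 1 to 6 it was 9.96% and over libraries 7 to 12 it was 25.9%, or 18.4% without library 10. The shallow libraries 5 and 6 were at 4.18% and 7.13%, and libraries 1 to 4 ranged from 11.7 to 21.1%. Libraries 7 to 12 without library 10 ranged from 12.4 to 24.9%. In library 10 the whole population was shifted, since its median C1q-high macrophage held 2.58 UMIs of H2-Ab1 per 10000, against 20.9 to 55.5 in the other libraries. Its other C1q-high macrophages also had the lowest H2-Ab1, with 2669 CPM (the summed UMIs of a gene per 1000000 UMIs of the same cells) against 4063 to 6558 CPM elsewhere. Arg1-positive macrophages, the same rule with Arg1 at 2 or more per 10000 and any H2-Ab1, were H2-Ab1-low in 56.5% of cells in library 10 and in 4.38 to 44.8% elsewhere. For cells with C1q under 30 per 10000 the share in library 10, 35.8%, lay inside the range of the others, 16.9 to 38.9%. For cells with Cxcl9 at 2 or more per 10000 it was 26.5% in library 10 and 0.766 to 12.3% elsewhere. Library 10 also held 143 cells with at least 2 UMIs of Cd79a and none of Adgre1, Csf1r or Cd3, against 3 to 23 in the others. These B cells had 10974 CPM of Cd74 and 3003 CPM of H2-Ab1. Those of libraries 1 and 5, the only others measured, had 11224 and 5623 CPM of Cd74, and 5390 and 3155 CPM of H2-Ab1. The part of B cell RNA and of the split by Xist in these shares was not tested.

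The shares moved with depth, and library 10 kept the highest share. After each cell was thinned to 2000 UMIs before the rule was applied, library 10 had 51.3% and libraries 5 and 6 had 3.95% and 6.95%, while the other 9 ranged from 16.1 to 35.8%. Among cells with at least 5000 UMIs library 10 had 53.3% and library 5 had 2.15%, and none of the 145 such C1q-high macrophages of library 6 was MHC-II-low, so the lowest share passed from library 5 to library 6. The identity of single cells was less firm. Of the 1763 MHC-II-low cells deep enough to thin, 48.3% still met the rule, and 689 were lost because their few UMIs of Adgre1 and Csf1r fell under 2. The thinned data held 1200 cells that had not met it before, 459 of which had passed the limit on Arg1, 428 had held a UMI of Mki67 or Top2a, 389 had passed the limit on H2-Ab1 and 321 the limit on Folr2.

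**Figure D2:**
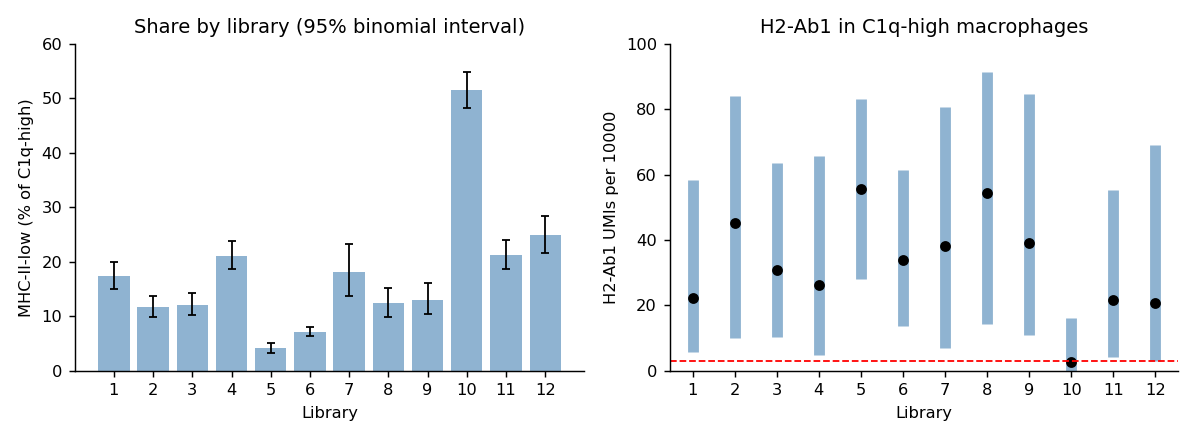
Left, MHC-II-low cells as a percentage of C1q-high macrophages in each of the 12 libraries, with 95% exact binomial intervals. Right, the median (point) and the middle 50% of cells (bar) of H2-Ab1 UMIs per 10000 in C1q-high macrophages, with the limit of 3 dashed. Library 10 is the highest at left, at 51.5%, and the lowest at right.

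The MHC-II-low cells carried the transcripts of macrophages, as their label says. The genes that chose them were at 3995 to 7836 CPM for C1qa, 3283 to 6471 CPM for C1qb and 339 to 648 CPM for Adgre1 over the 12 libraries. Genes that the rule did not use were also abundant: Apoe, the lipid carrier, at 23673 CPM over all libraries, Lyz2, lysozyme, at 9997 CPM, and the signaling adaptors Tyrobp and Fcer1g at 2470 and 3495 CPM. All 12 genes of the macrophage identity list passed the floor of 50 CPM. Markers of other cells were scarce. For T cells this follows in part from the choice, which allowed no UMI of Cd3d, Cd3e or Cd3g. The summed level over all libraries was 10.5 CPM for 8 T and NK cell markers, 11.4 CPM for 5 B and plasma cell markers with Cd79a at 0, 10.9 CPM for 8 dendritic cell markers, 18.1 CPM for 7 tumor and stromal markers with Krt8, Krt18 and Epcam at 0, and 0.251 CPM for 5 mast cell and basophil markers. The 6 neutrophil markers ranged from 21.4 CPM in the lowest library to 1085 CPM in library 8, and in the other C1q-high macrophages from 49.9 to 876 CPM. The 4 red blood cell markers reached 4133 CPM in the cells of library 4.

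The main comparison set the MHC-II-low cells against the other C1q-high macrophages of the same library. The UMIs of each population were summed per library, and the log2 CPM ratio is the median over the 11 libraries with 50 or more cells of each population, which leaves out library 7 with its 49 cells. Since H2-Ab1 of the same cells made the groups, the ratios are a description with no test. Of 2871 genes with at least 50 CPM in either population, 26 (0.906%) were at least 2-fold higher in the median library and 24 (0.836%) at least 2-fold lower. The median of all 2871 genes was a log2 ratio of 0.04. Without library 4 only 16 genes were at least 2-fold higher, and Cd36, Spp1, Cela1, Gdf15, Itsn1, Syngr1, Xist and 3 hemoglobin genes left the group. Each of these hemoglobin genes had a median of 0 CPM over the libraries of MHC-II-low cells, and only library 4 brought them over the floor. In the median library their ratios were set by the 0.5 UMI added to each sum. Their place among the 26 genes is therefore not read as a difference in expression. Cela1 still had a log2 ratio of 1.29 and left because its level passed under 50 CPM. In every library used, 275 genes (9.58%) were higher and 181 (6.3%) were lower.

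The class II genes were lower together. Of 8 genes of the class II pathway list, which leaves out H2-Ab1, 5 passed the floor and all 5 were at least 2-fold lower and lower in each of the 11 libraries. Their median log2 ratio was -4.09, and their summed level with the 3 scarce genes was 1146 CPM in the MHC-II-low cells and 20147 CPM in the other C1q-high macrophages. H2-Eb1 had a lowest, median and highest level of 58.0, 99.7 and 469 CPM in the 12 libraries of MHC-II-low cells. The other macrophages had 2166 to 5919 CPM. H2-Eb1 was 37.7-fold lower (log2 ratio -5.24, and -4.53 with the rule applied again to cells thinned to 2000 UMIs). H2-Aa had 80.4, 152 and 706 CPM against 2573 to 5877 CPM and was 28.01-fold lower. Cd74, the invariant chain that escorts class II molecules to endosomes, had 357, 620 and 1255 CPM against 6118 to 14081 CPM and was 17.1-fold lower. For these 3 genes no library of the MHC-II-low cells came near any library of the others.

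The chaperone H2-DM was reduced less. H2-DMb1 was 4.53-fold lower, at 59.96 to 169 CPM against 297 to 676 CPM, and H2-DMa was 2.29-fold lower, at 158 to 292 CPM against 358 to 657 CPM. Ciita, the co-activator itself, was under the floor, with 2.13 CPM in the MHC-II-low cells and 37.6 CPM in the other macrophages. H2-Oa and H2-Ob, the modulators of H2-DM, were at 1.75 and 3.13 CPM. For H2-Aa, H2-Eb1 and Cd74 the smallest differences were in the shallow libraries 5 and 6, where H2-Aa was at 484 and 706 CPM while the other 10 libraries lay between 80.4 and 194 CPM. For H2-DMb1 the smallest difference was also in library 6 (log2 ratio -1.52), while library 5 was at -2.61. For H2-DMa library 5 had the largest difference (-1.56), and library 10 (-0.77) and library 6 (-0.91) the smallest.

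The H2-Aa and H2-Eb1 transcripts that remained were compared with those in cells that should not make them. T cells, defined here by at least 2 UMIs of Cd3 genes and none of Adgre1 or Csf1r, had 1038 CPM of H2-Aa and 1927 CPM of Cd74, and neutrophils (at least 10 UMIs of S100a8 and S100a9 and at least 1 of Csf3r) had 489 and 1002 CPM. The MHC-II-low cells had 153 CPM of H2-Aa and 573 CPM of Cd74. In droplet data, UMIs in cells that should not make them can be free RNA or RNA of a second cell. Doublets were not removed, and the source of these UMIs was not tested. In the median library T cells had 131 CPM of C1qa, against 6313 CPM in the other C1q-high macrophages. For H2-Aa these medians were 874 and 4493 CPM. At 2000 UMIs per cell, 22.5% of MHC-II-low cells had a UMI of H2-Aa, against 36.9% of T cells, 32.0% of neutrophils and 93.8% of the other C1q-high macrophages. Without thinning these shares were 50.3%, 41.2%, 26.1% and 97.5%, with median depths of 6739, 2783, 1485 and 5312 UMIs. At equal depth the share in MHC-II-low cells was thus below that in both other cell types, and no expression of H2-Aa is read from it. Thinning left out 2253 of the 6448 T cells and 1026 of the 1689 neutrophils as too shallow, so their shares are those of the deeper cells. Low H2-Ab1 was the choice of the MHC-II-low cells and not of the others, and in library 3 the MHC-II-low cells had 166 CPM of H2-Aa against 125 CPM in neutrophils. H2-Eb1 was at 15.9% of the thinned MHC-II-low cells and 33.1% of T cells, and Cd74 at 49.6% and 43.1%. H2-DMa was above both cell types over all libraries, though not in library 6, where it was at 274 CPM against 292 CPM in T cells, with a UMI in 34.5% of the thinned MHC-II-low cells, 17.5% of T cells and 6.49% of neutrophils.

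Class I genes were near the median of all genes. Of 9 genes of class I presentation, 8 passed the floor, none differed 2-fold, and their median log2 ratio was -0.11. B2m, the light chain of class I, was at 3797 CPM in the MHC-II-low cells and 4184 CPM in the others. The heavy chains H2-K1 and H2-D1 were at 2567 and 2438 CPM against 2778 and 2443 CPM. The immunoproteasome subunits Psmb8 and Psmb9 were lower in all 11 libraries, with log2 ratios of -0.27 and -0.16.

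**Figure D3:**
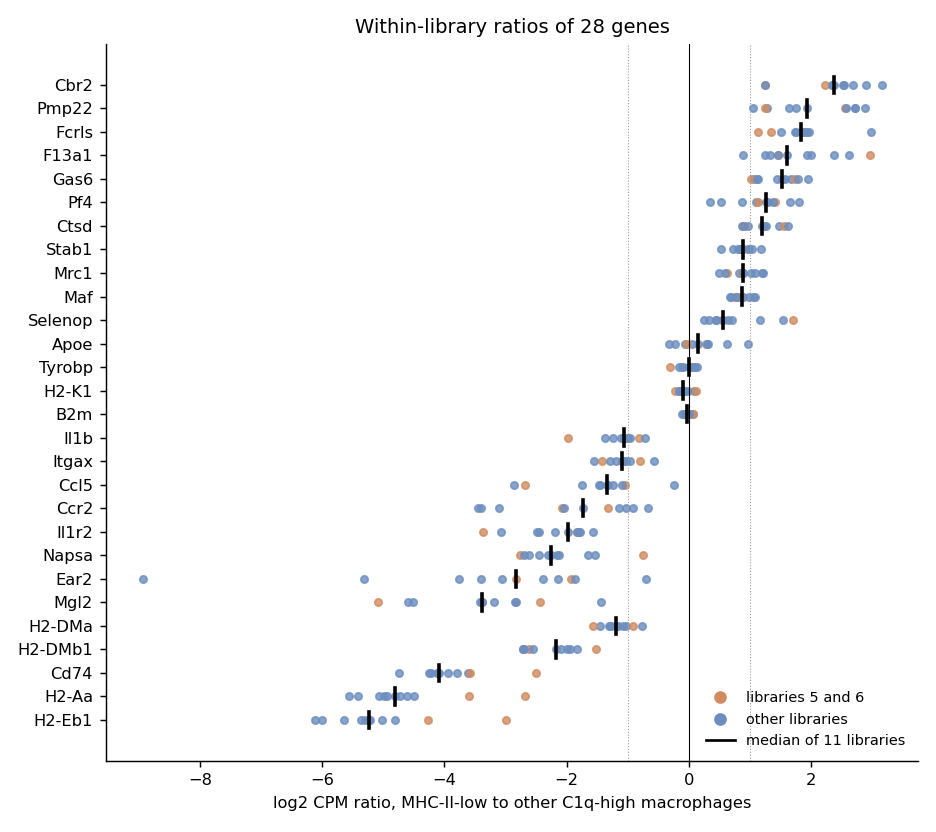
Within-library log2 CPM ratios of the MHC-II-low cells to the other C1q-high macrophages for 28 genes in 11 libraries (points) with their median (bar). Dotted lines mark 2-fold. H2-Eb1, H2-Aa and Cd74 have the lowest medians, with libraries 5 and 6 (orange) nearest to 0, Cbr2, Pmp22 and Fcrls have the highest, and B2m and H2-K1 lie close to 0.

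Genes of tissue resident type macrophages were higher in the MHC-II-low cells. Of 12 genes of that list, 9 passed the floor, all 9 were higher in each of the 11 libraries, 4 were at least 2-fold higher, and the median log2 ratio was 0.88. The 3 genes under the floor, Lyve1, Cd163 and Timd4, are the classical markers of long-lived tissue macrophages and were at 0.752, 3.07 and 0.0627 CPM. The list was chosen with earlier results of these data known, and low Folr2, which marks many resident macrophages, was part of the choice of cells.

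Cbr2, a carbonyl reductase, had a lowest, median and highest level of 22.7, 60.4 and 212 CPM in the MHC-II-low cells and of 4.51, 11.3 and 36.8 CPM in the others, and was 5.18-fold higher. It had its lowest ratios in libraries 6 and 10. Gas6, the ligand that bridges dying cells to the TAM receptors, had 95.9, 208 and 331 CPM and was 2.86-fold higher. F13a1, coagulation factor XIII A, had 9.49, 111 and 434 CPM and was 3.03-fold higher, with its highest levels in libraries 4 and 5. Pf4, a platelet-type chemokine that macrophages also make, had 485, 1202 and 4847 CPM and was 2.41-fold higher. The levels of these 4 genes in the 2 populations overlapped between libraries, and the difference was seen within each library. Mrc1, the mannose receptor, Stab1, a scavenger receptor, Maf, a macrophage transcription factor, Selenop, a selenium carrier, and Ccl8, a chemokine, had log2 ratios of 0.88, 0.88, 0.86, 0.55 and 0.87.

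Fcrls, an Fc receptor-like gene known from microglia, lies on the minus strand at chr3:87250758-87263738 (GRCm38) and was in no list. Its lowest, median and highest levels were 187, 656 and 941 CPM in the MHC-II-low cells and 85.7, 181 and 257 CPM in the others, a 3.56-fold difference within libraries, with library 5 of the MHC-II-low cells inside the range of the others. At 2000 UMIs it was detected in 57.3% of MHC-II-low cells, 20.3% of other C1q-high macrophages, 2.002% of T cells and 1.66% of neutrophils, and without thinning in 72.4%, 33.9%, 3.07% and 2.66%. The other genes among the 15 furthest above, beside Cbr2, Fcrls, F13a1, Gas6 and Pf4, were Pmp22, a membrane protein best known from myelin (log2 ratio 1.93), Ctla2a (1.62), Serpinb6a (1.57), Cela1 (1.41), the GTPase Rhoc (1.35), the lysosomal glycoprotein Gpnmb (1.32), the lysosomal protease Ctsd (1.20), Vat1 (1.17) and the ubiquitin ligase Wwp1 (1.15). Xist met the same rule at 1.22 because 6 libraries hold almost none of it and the added 0.5 UMI then gives the ratio of depths, and over libraries 7 to 12 its log2 ratio was 0.15.

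Some lysosome, lipid and heme genes were higher in the MHC-II-low cells. Of 11 cathepsin and lysosome genes, all above the floor, 4 were higher in all 11 libraries and 1 reached 2-fold, with a median log2 ratio of 0.22. That gene was Ctsd, at 2597 to 5577 CPM against 942 to 2741 CPM. Ctss, the protease that cleaves Cd74, was at 3348 against 3827 CPM and was lower in 8 of 11 libraries. Of 14 lipid and scavenger genes, 13 passed the floor, 5 were higher in all libraries and 3 reached 2-fold, Gpnmb, Spp1 and Cd36. Spp1, osteopontin, had 645, 1443 and 5831 CPM, and its log2 ratio was 1.01. Trem2, a lipid-sensing receptor, was at 820 against 551 CPM and higher in all 11 libraries (0.47), as were the cholesterol exporter Abca1 (0.81) and the scavenger receptor Msr1 (0.25). Hmox1, which breaks down heme, was at 480 against 167 CPM and higher in 10 of 11 libraries (1.24). Igf1, a growth factor, was at 168 against 87.5 CPM and higher in all 11 (1.07). Timp2, an inhibitor of matrix proteases, was at 594 against 347 CPM (0.78).

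Some monocyte genes were lower. Of 12 monocyte genes, 10 passed the floor, 4 were at least 2-fold lower and none 2-fold higher, and the median log2 ratio was -0.49. Ccr2, the receptor that brings monocytes into tissue, had 12.98, 46.6 and 126 CPM in the MHC-II-low cells and 85.7 to 423 CPM in the others, and was 3.32-fold lower and lower in all 11 libraries. Plac8, Chil3 and Ly6c2 had log2 ratios of -1.84, -1.63 and -1.26 and were lower in 10, 9 and 10 of 11 libraries. Fn1, fibronectin, went the other way, at 482 against 350 CPM and higher in all 11 (0.45). Mgl2, a lectin of monocyte-derived dendritic-type cells and macrophages, was 10.4-fold lower, at 3.81 to 26.1 CPM against 35.8 to 194 CPM. Its log2 ratio was -3.38, and -2.19 with the rule applied again to cells thinned to 2000 UMIs. Ear2, a ribonuclease, Napsa, an aspartic protease, and Il1r2, the decoy receptor for interleukin 1, had log2 ratios of -2.83, -2.25 and -1.98. Itgax, which encodes CD11c, was 2.12-fold lower, at 56.4 to 133 CPM against 120.4 to 269.9 CPM. Plbd1, Ass1 and Tnip3 completed the 15 genes furthest below among those lower in every library, with log2 ratios of -1.41, -1.19 and -1.11.

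Inflammatory genes were mixed. Of 9 inflammatory cytokine genes, 7 passed the floor and 1 was 2-fold lower, with a median log2 ratio of -0.14. That gene was Il1b, at 505 to 1678 CPM against 1195 to 3428 CPM, lower in all 11 libraries (-1.07). Ptgs2, the inducible cyclooxygenase, and Il1rn, the interleukin 1 receptor antagonist, were also lower in all 11 (-0.62 and -0.39). Tnf was at 56.8 against 55.6 CPM. Among 9 CC chemokines, Ccl5, a T cell attractant, was lower in all 11 libraries (-1.34) and Ccl7, a monocyte attractant, was higher in all 11 (0.74). Ccl2 and Ccl12, both ligands of Ccr2, were at 770 and 1558 CPM against 551 and 1028 CPM, each higher in 10 of 11 libraries. Among the 10 genes of the complement list, which leaves out C1q, C3 and Cfb were lower in all 11 (-0.94 and -0.60), and the receptors C3ar1, C5ar1 and Cd93 were higher in all 11 (0.34, 0.46 and 0.75).

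Among these cells, all chosen for low Cxcl9 and low Arg1, the interferon lists stayed near the median of all genes. None of the 9 type I interferon genes above the floor differed 2-fold, and their median log2 ratio was -0.05. Of 10 interferon gamma response genes only 4 passed the floor, with a median of -0.22 and none at 2-fold. The rule had left cells high in Cxcl9, which interferon gamma induces, out of both populations. With any H2-Ab1 these were 8051 cells, of which 3.54% were H2-Ab1-low. The median thus describes cells low in Cxcl9 only, and a difference in interferon gamma response with those cells included was not tested. The glycolysis, heat shock and immediate early lists had medians of -0.01, -0.20 and -0.11 with no gene at 2-fold. The 16431 cells high in Arg1, with any H2-Ab1, were likewise left out of both populations. The H2-Ab1-low cells among them had more of the hypoxia genes Bnip3 and Ndrg1 than the MHC-II-low cells. The glycolysis and hypoxia median thus describes cells low in Arg1 only. The median was -0.04 for checkpoint genes, with Cd86, a costimulator, lower in all 11 libraries (-0.36) and Sirpa higher in all 11 (0.34). Ezh2, the target of EZH2i, was at 22.3 against 22.8 CPM, and of 11 Polycomb genes only Rbbp4 and Rbbp7 passed the floor, with log2 ratios of 0.17 and 0.15.

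The remaining lists also held few differences. The Fc receptors had a median log2 ratio of -0.03 over 5 genes, the clearance receptors 0.27 over 7, and the iron and heme genes 0.22 over 6. The CXC chemokines had a median of -0.22 over 4 genes, and Cxcl16, a lipid scavenger and chemokine, was lower in all 11 libraries (-0.16). The TGF-beta and interleukin 10 genes had a median of -0.10, with the matrix protein Tgfbi lower (-0.50) and the receptor Tgfbr2 higher (0.34) in all 11. The growth factor list had -0.05, with Csf2ra and Csf2rb, the receptor chains for GM-CSF, lower in all 11 (-0.50 and -0.42). The matrix metalloproteinase list had -0.25, and Mmp13, a collagenase, was lower in 10 of 11 (-1.09). Of the macrophage transcription factors, with a median of -0.05, Maf stood out, while Spi1 and Cebpb, which set myeloid identity, were at -0.14 and -0.03. The cell cycle list, which leaves out the genes of the rule, had 0.16 over 4 genes.

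Many of the genes followed along H2-Ab1 changed by degrees. Of 27 such genes, picked with their values known, 9 went down at every step, 10 went up at every step and 8 did neither. The genes that went up include Cd74, H2-Aa, H2-Eb1, H2-DMb1 and H2-DMa, of the same class II pathway as H2-Ab1, which made the classes. Over 6 classes of C1q-high macrophages with at least 5000 UMIs, from no UMI of H2-Ab1 to over 60 per 10000, the median-library level of Fcrls went from 785 to 687, 406, 229, 122 and 34.3 CPM. Gas6 went from 290.5 to 25.3 CPM, Cbr2 from 47.6 to 2.18 CPM and Ctsd from 5088 to 917 CPM, each with a decline at every step. In the other direction Ccr2 went from 29.9 to 230 CPM, Il1b from 909 to 2818 CPM and Mgl2 from 5.38 to 224 CPM, again at every step. Spp1 was highest in the class just under the limit, at 1051, 1906 and 1069 CPM in the 3 lowest classes, as was Hmox1 at 240.02, 321 and 239 CPM. These medians rest on different sets of libraries, and over all libraries summed both were highest with no UMI of H2-Ab1, Spp1 at 2312, 2128 and 1415 CPM and Hmox1 at 493, 443 and 275 CPM. Ly6c2 had no even course, at 45.4, 58.95, 21.3 and 104 CPM in the 4 lowest. C1qa, which was part of the choice, stayed between 5987 and 7279 CPM. Tyrobp stayed between 2452 and 2665 CPM, although it is among the 9 genes that went down at every step. The lowest class rests on the 7 libraries with at least 20 such cells, the next on 9, the third on 10 and the higher ones on all 12. Just inside the limit, at 2 to 3 UMIs of H2-Ab1 per 10000, 282 cells had 552 CPM of Fcrls and 253 CPM of H2-Aa, and just outside it, at 3 to 4, 290 cells had 507 and 366 CPM.

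**Figure D4:**
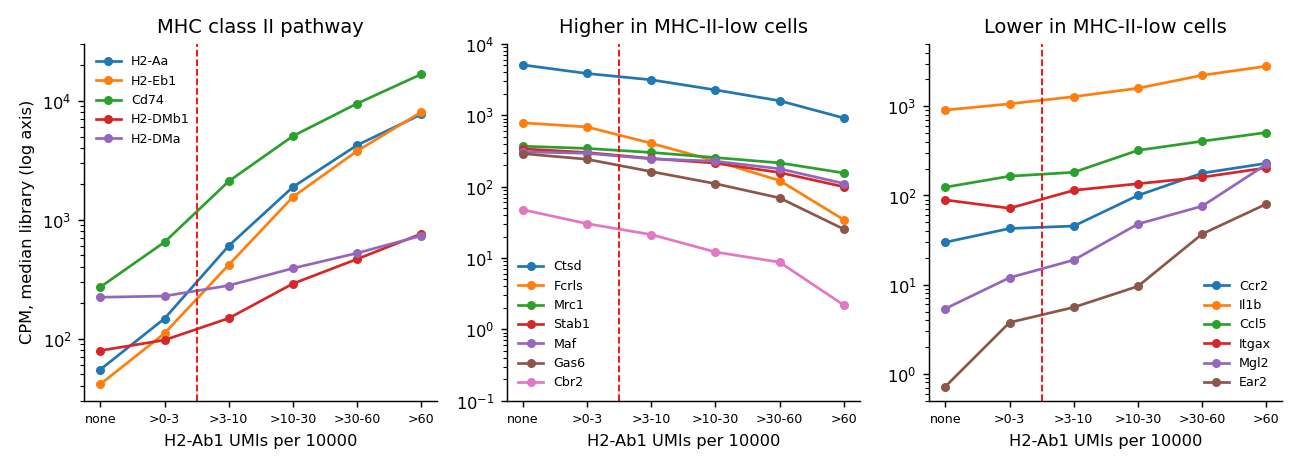
CPM in the median library (log axis) of class II genes, genes higher and genes lower in MHC-II-low cells, over 6 classes of H2-Ab1 UMIs per 10000 in C1q-high macrophages with at least 5000 UMIs. The dashed line is the limit of the rule. Fcrls goes from 785 to 34.3 CPM and Ccr2 from 29.9 to 230 CPM.

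Cells that broke a single criterion were compared next, each over the libraries that had enough of them, and the 1100 cells with a UMI of Mki67 or Top2a were not compared. First among them were the 3371 cells with Arg1, arginase 1, at 2 or more UMIs per 10000 and H2-Ab1 still low. Of 2887 genes over 11 libraries, 1 (0.0346%) was 2-fold higher in the MHC-II-low cells and 24 (0.831%) were 2-fold lower. Those furthest lower were Mmp12, the macrophage elastase, at 96.6 against 528 CPM (log2 ratio -2.83), the hypoxia genes Bnip3 (-2.08) and Ndrg1 (-1.89), the metallothionein Mt2 (-1.71) and the arginine transporter Slc7a2 (-1.66), each lower in all 11 libraries. The 1 gene above was Ighm, the heavy chain of IgM, at 53.6 against 17.9 CPM (1.92), while Cd79a had no UMI in the MHC-II-low cells. Low H2-Ab1 was part of the choice of both populations, and H2-Aa was at 153 and 141 CPM. Fcrls was alike, at 693 and 579 CPM.

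Cells with 2 or more UMIs of Folr2, the folate receptor of resident macrophages, numbered 506, and 3 libraries had at least 50 of them. Ednrb, Fcna, Ccl8, Clec10a and Cbr2 were lower in the MHC-II-low cells in all 3, with log2 ratios from -3.18 to -1.90, and Ccl8 was at 1475 against 10276 CPM over all libraries. Ighm, Ccl5, Hspa1b, Zmynd15 and Cxcl10 were higher in all 3, although Hspa1b was lower over all libraries together, at 150 against 230.1 CPM. Of 2956 genes, 23 (0.778%) were 2-fold higher and 36 (1.22%) 2-fold lower. For cells with Cxcl9, an interferon gamma-induced chemokine, only libraries 1 and 6 had 50 or more of the 285 cells. There the interferon-induced genes Serpina3g, Gbp2 and Iigp1 were lower in the MHC-II-low cells (-3.02, -1.63 and -1.42). Hba-a1 and Xist were also lower, both at -1.80, which is the ratio of depths that the added 0.5 UMI gives. F13a1, Chil3, Ccl3, Cxcl2 and Plin3 were higher, F13a1 the most (2.83). Of 2933 genes, 11 (0.375%) were 2-fold higher and 18 (0.614%) 2-fold lower. Of C1q-high macrophages with that much Cxcl9 and any H2-Ab1, 3.54% were H2-Ab1-low, against 14.4% without it and 20.5% of the Arg1-positive cells. In the median library these shares were 6.19%, 15.2% and 25.2%, and libraries 5 and 6, which held 2349 and 2384 of the 8051 cells with that much Cxcl9, were at 0.766% and 2.39% for these cells.

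The 661 cells with C1q under 30 per 10000 were the most distant. Over 5 libraries 285 of 3163 genes (9.01%) were 2-fold higher in the MHC-II-low cells and 351 (11.1%) 2-fold lower. Fcrls was at 693 against 8.45 CPM (log2 ratio 6.27), the protease Mmp2 at 65.1 against 0.685 CPM (5.72), and Vcam1, an adhesion molecule, at 453 against 10.97 CPM (5.01). Gpr34 and Olfml3, both known from microglia, had log2 ratios of 5.35 and 5.04. The genes furthest lower were Cd177, Hp, Dmkn, Lcn2 and Pglyrp1, of which Cd177, Lcn2 and Pglyrp1 are known from neutrophils, from -7.12 to -5.75. The C1q-poor cells also held 424 CPM of Ccr2 and 972 CPM of Ly6c2. Their H2-Aa was at 119 CPM, and low H2-Ab1 was again part of their choice. Just inside the C1q limit, at 30 to 40 per 10000, 40 cells had 28.5 CPM of Fcrls, and 45 cells at 20 to 30 had 26.2 CPM, so the lowest of the MHC-II-low cells by C1q resembled these neighbors in Fcrls.

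**Figure D5:**
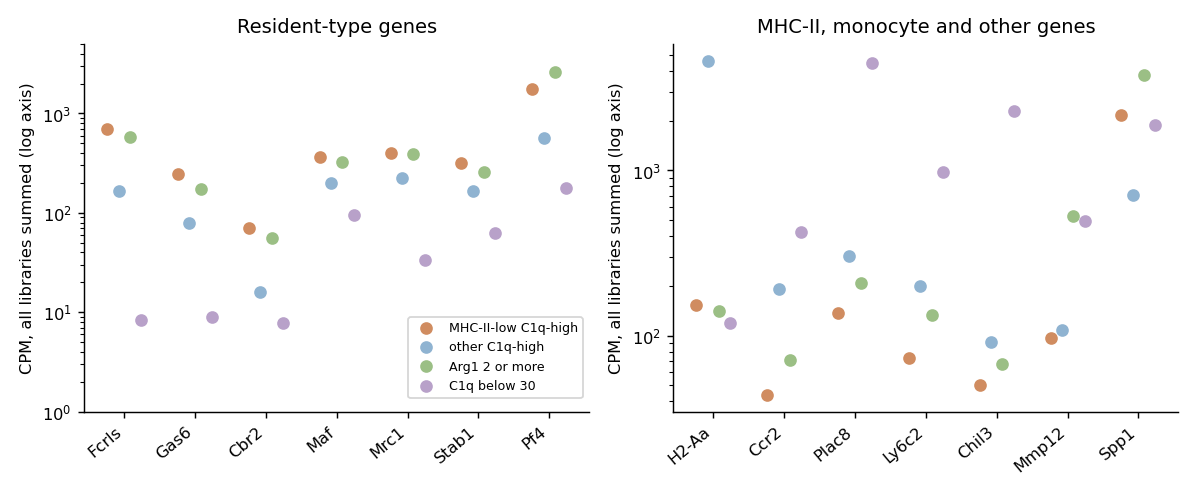
CPM over all libraries (log axis) of 14 genes in the MHC-II-low cells, the other C1q-high macrophages, the H2-Ab1-low cells with Arg1 at 2 or more per 10000 and those with C1q under 30. The Arg1-positive cells lie next to the MHC-II-low cells for Fcrls, Gas6 and Cbr2 and above them for Mmp12, at 528 against 96.6 CPM. They also lie next to them for H2-Aa, where both were chosen for low H2-Ab1.

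The MHC-II-low cells differed among libraries. Leaving aside hemoglobin and Xist, the genes with the widest range from the lowest to the highest library were Fabp4, S100a8, Hspa1b, Atp6v0d2 and Ednrb. Library 5 held the highest Fabp4, a fatty acid carrier, at 537 CPM against a median of 75.5 CPM, and the highest Atp6v0d2, a subunit of the lysosomal proton pump, at 251 CPM against 29.9 CPM. It was also highest in the lipid receptor Cd36 at 941 CPM, Gpnmb at 1470.1 CPM and Spp1 at 5831 CPM. Library 4 was highest in Ccl8 at 9536 CPM, Pf4 at 4847 CPM, Hmox1 at 1623 CPM, Maf at 672 CPM and the heat shock gene Hspa1b at 1036 CPM. Library 8 was highest in S100a8, at 411 CPM, and in Plac8, at 499.99 CPM. With no label for a library's mouse, these ranges were not assigned to treatment or time, and the part of either was not tested.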

How the data were processed

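Single-cell 3′ RNA libraries of CD45+ cells from 12 tumors were sequenced by the authors, and the deposited matrix holds whole-number UMI counts per gene and barcode, not normalized. The submitters' processing notes name Cell Ranger 2.1.1, Seurat and mm10, while the matrix header gives software version 3.0.2. No per-sample column was left unused (0), and no barcode library number was tied to a sample.

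Barcodes stayed in if they had over 200 genes, under 5000 genes and no more than 10% of UMIs from mitochondrial transcripts. The UMIs of each population were summed per library and turned into CPM. Log2 ratios within a library used 0.5 UMI added to each sum, and the median was taken over libraries with at least 50 cells of both populations. Genes needed 50 CPM in either population, and 2-fold was the threshold. No p-values were computed, because the 12 libraries were not assigned to groups and the matrix was treated as 1 sample. Intervals are exact Clopper-Pearson 95% intervals and cover counting error only.

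The members and gene lists were chosen with earlier results of these data known. Genes were named from the lists, the rule and the 15 furthest on each side with the same sign in every library used. Further sources were the 5 furthest for each neighboring population and the 10 with the widest range between libraries. Not every gene of these sources is named. Depth was checked by thinning cells to 2000 UMIs, which left out 252 MHC-II-low cells and 1739 other C1q-high macrophages. For log2 ratios and shares of MHC-II-low cells the rule was applied again to the thinned cells. Percentages of cells with a UMI of a gene at 2000 UMIs used the cells chosen before thinning. Doublets were not removed: the automatic threshold of Scrublet marked 6 cells (0.00465%) and so did not work. Removing instead the highest scores took 3.87% of the MHC-II-low cells and 12.9% of the other C1q-high macrophages. The ratio script was tested on simulated data. Positions came from GENCODE M21 (GRCm38), in which all 338 identifiers looked up were found, and promoters from RefSeq (GRCm38.p6), whose table was matched for 6 of the class II genes. Sums and ratios were made with pandas 2.3.3 and numpy 2.4.6, intervals with scipy 1.17.1, Scrublet was run through scanpy 1.11.5 and figures through matplotlib 3.10.9, under Python 3.11.15. Alternatives with 5 CPM added and with libraries 1 to 6, 7 to 12, or 7 to 12 without 10 alone were chosen after seeing the data.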

Additional observations from a re-analysis of the deposited data

How the results depend on the processing

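No paired analysis was possible because the libraries carry no label of group or replicate that could pair treated with vehicle samples; the 2 populations were compared within each library throughout. The 30 genes furthest from the other C1q-high macrophages on either side, the only single genes run under the alternatives, and the class II, resident type and monocyte medians kept their sign, except Xist, which came to 0 with 5 CPM added. Folds of 5 of them moved by over 1.5 times: at 2000 UMIs the log2 ratio was -4.53 for H2-Eb1 and -2.19 for Mgl2 (-4.12 with no UMI of H2-Ab1), at the 5% mitochondrial limit -3.53 for Ear2, with all libraries summed 2.30 for Ctla2a, and for Xist it ran from 0 to 3.01. Medians near 0 did cross it: over the alternatives the matrix metalloproteinase list ran from -0.62 to 0.25, complement from -0.21 to 0.19, glycolysis from -0.15 to 0.19, growth factors from -0.13 to 0.10, Fc receptors from -0.15 to 0.04, type I interferon genes from -0.16 to 0.15, checkpoint genes from -0.17 to 0.01, immediate early genes from -0.17 to 0.02 and transcription factors from -0.06 to 0.04. The share of MHC-II-low cells among cells kept was 1.45% with a mitochondrial limit of 5%, 0.855% when no UMI of H2-Ab1 was allowed, 2.25% with up to 6 per 10000, 1.98% after thinning, 2.33% in cells of at least 5000 UMIs, 1.78% without the highest Scrublet scores, 1.04% in libraries 1 to 6 and 3.09% in libraries 7 to 12, or 1.93% in the latter without library 10. Among C1q-high macrophages the share was 7.90%, 20.8%, 18.6%, 17.8%, 15.7%, 9.96% and 25.9% (18.4% without library 10) for the settings from no UMI of H2-Ab1 on, in the same order. Of libraries 1 to 6, the shallow libraries 5 and 6 were the lowest, at 4.18% and 7.13%. With each library left out in turn, the shares ran from 1.25 to 1.89% and from 11.9 to 17.4%, the number of genes 2-fold higher from 16 (without library 4) to 30, and the number 2-fold lower from 22 to 26. The list medians ran from -4.10 to -4.02 for class II, from 0.87 to 0.99 for resident type genes and from -0.55 to -0.48 for monocyte genes. With a floor of 20 CPM 46 genes were 2-fold higher and 47 lower, with 100 CPM 14 and 14, and with no floor 6235 and 110, where the added 0.5 UMI sets the ratio of genes with few counts. With no floor the class II median was -3.04 and the resident type median 1.38. Summing all libraries gave 1.47 for resident type genes and libraries 7 to 12 without 10 gave 1.32, and the 5% mitochondrial limit gave -0.99 for monocyte genes. With 5 CPM added, 18 of the 26 higher and 20 of the 24 lower genes remained. Depth limits the choice of single cells: libraries 5 and 6 are shallow, and 48.3% of the cells deep enough to thin met the rule again.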

Other observations

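A few cells carried most of the neutrophil transcripts. Of 3527 UMIs of S100a8 and S100a9 in the MHC-II-low cells, 3296 lay in the cells with 10 or more. These were 25 of the 2015 MHC-II-low cells, and 101 of the 11934 other C1q-high macrophages also had 10 or more. The T cells of the 12 libraries held 24.996 to 171 CPM of Ifng, the interferon gamma gene, with a median of 83.6 CPM. Those of library 10 held 151 CPM, and only those of library 1 held more. A part of Ifng in the shares was not tested. The barcode sequences of 69 MHC-II-low cells were also those of a cell kept in another library. Cd5l, a macrophage survival factor, and Slc40a1, the iron exporter, were highest in the MHC-II-low cells of library 4, at 230 and 138 CPM, against medians of 8.77 and 14.3 CPM, and were named after their values were seen.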
